A study of Drosophila melanogaster with 10 samples.

Results

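Chromosome 4 is the smallest chromosome of Drosophila melanogaster, and 387 of the 39806 accessible summits of an ATAC-seq list from S2 cells lie on it (0.972%). All rows of the list that name chromosome 4 were taken, whatever their score, and they belong to 165 of the 15615 peaks. In ATAC-seq, a transposase (Tn5) inserts adapters where DNA in nuclei is open to it. A summit is a position of locally highest signal inside a peak, and a peak can hold several. S2 is an embryo-derived Drosophila cell line with features of blood cells. Libraries were made after 5 days of dsRNA at 10 µg/mL against GAF (a DNA-binding protein of GAGA sequences), against BAP170 (a subunit of the PBAP remodeling complex), against NURF301 (a subunit of the NURF remodeling complex), against NURF301 and BAP170 together, or against LACZ as control. Each of these 5 groups had 2 independent knockdown replicates, all in S2 cells. RNAi lowers a transcript without deleting the gene, and how far each target fell was not analysed here.

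The authors deposited 1 list of summits for all 10 libraries, and how the libraries were combined is not stated. The list has no value for a single library or treatment, and no replicate error, and no test between treatments or between chromosomes was made. Each summit has a score, −log10 of its q value, which runs from 1.30 to 80130 over the list with a median of 21.9. A score grows with the number of reads, and so with read depth and with the copy number of a chromosome as well as with accessibility. Depth per library and chromosome copy number in these cells were not analysed here. Chromosome 4 was set against X (4884 summits) and the large autosome arms 2L, 2R, 3L, and 3R (34182 summits). Intervals in parentheses are 95% intervals and cover counting error only, since neighboring summits, peaks, and genes are not independent. Of 6 genes used by the blood cell lineage, 5 (srp, ush, Hml, crq, and Pxn) had a summit near an annotated end, at most 500 bp away, and NimC1 had none, where 60.0% of all coding genes had one. The strongest such score was 463 at crq, 183 at ush, 122 at srp, 33.1 at Hml, and 14.0 at Pxn. Only that of Pxn is under the list median, and its strongest summit inside the gene scored 131.

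Chromosome 4 is known as the dot chromosome. Much of it is packaged with heterochromatin protein HP1a and is rich in repeats, yet most of its genes lie in its arm and many are transcribed. The protein POF binds it along its length and supports the output of its genes. Its genes are long, and several encode regulators of development such as the Hedgehog effector ci and the eye-specifying genes ey and toy. In the RefSeq annotation of the same assembly (Release 6, dm6), it carries 80 protein-coding genes with a median length of 10090 bp. The median was 2520 bp for the 2197 coding genes of X and 2080 bp for the 11645 of the large autosome arms.

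With every summit counted, chromosome 4 was about as dense in summits as the large autosome arms and denser than X. With the end of the last annotated gene as the length of each chromosome, chromosome 4 had 30.4 summits per 100 kb (27.5 to 33.6), X had 20.7 (20.2 to 21.3), and the large autosome arms together had 31.4 (31.1 to 31.8). The 4 large arms ranged from 30.1 on 3R to 33.0 on 2L. The value of chromosome 4 lies in that range only because it counts 50 summits past the end used as its length. With length to the last summit it was 29.3, and without those 50 summits it was 26.5, both under the 30.1 of 3R. Peaks numbered 13 per 100 kb on chromosome 4 (11.1 to 15.1), 8.45 on X (8.08 to 8.83), and 12.2 on the large arms (12.0 to 12.4). Against X and the large arms pooled, the ratio was 1.03 for summits and 1.12 for peaks, and both chromosome 4 intervals included the pooled value. Coding genes were sparser on chromosome 4, at 6.29 per 100 kb, against 9.33 on X and 10.7 on the large arms. Per coding gene, chromosome 4 had 4.84 summits with the 50 past its last gene counted, against 2.22 on X and 2.94 on the large arms.

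**Figure D1:**
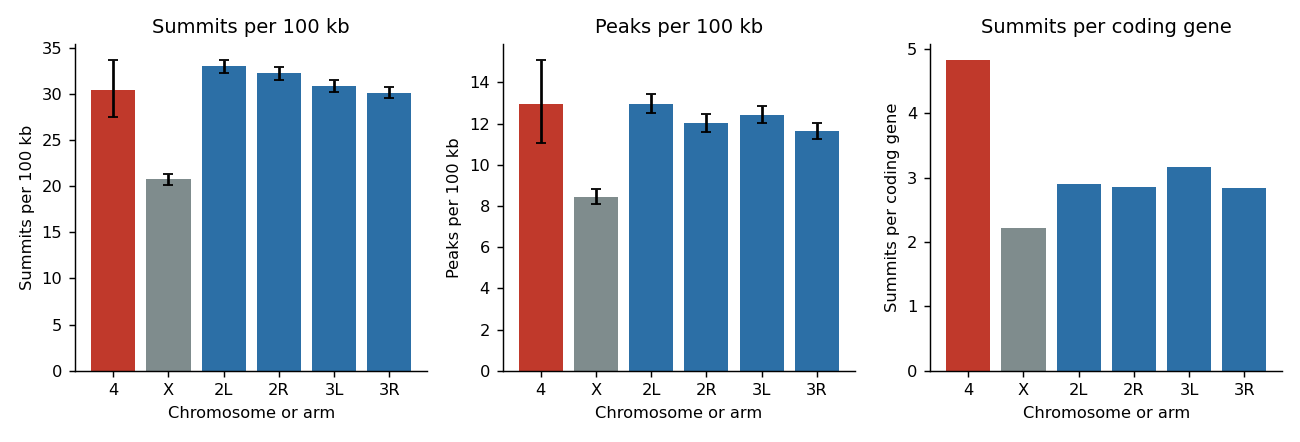
Summits per 100 kb, peaks per 100 kb, and summits per protein-coding gene (vertical axes) for chromosome 4, X, and the 4 large autosome arms (horizontal axes), with bars from 0 and exact 95% Poisson intervals on the first 2 panels. Chromosome 4, at 30.4 summits per 100 kb with those past its last gene counted, sits among the large arms and above X, at 20.7. Without those summits it had 26.5, under each large arm. It has the highest number per gene, 4.84 with the summits past its last gene counted.

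The count on chromosome 4 rests in part on the distal end of the chromosome. Past 1271759, where Cadps ends and with it the last gene of the table used, 50 summits in 13 peaks lie between 1272471 and 1319531. These are 12.9% of the chromosome's summits in 47.8 kb. X had 0 summits past its last gene, and 2L, 2R, 3L, and 3R had 3, 9, 2, and 1. Without such summits, chromosome 4 had 26.5 per 100 kb, and its ratio to X and the large arms together was 0.898. The 3 highest scores of chromosome 4 stand in this distal stretch, 6505 at 1278941 and 5081 and 3002 at 1295212 and 1295324. In the whole list they rank 43rd, 48th, and 58th. Up to the end of Cadps, the highest score was 751 and 0 summits reached 1000. Summits scoring 1000 or more were rare elsewhere too, 10 of 4884 on X and 56 of 34182 on the large arms. The distal peaks held 3.85 summits on average, against 2.22 in the other peaks of the chromosome. Repeat content and multiple mapping of reads there were not analysed here.

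Along the chromosome, summits were uneven. In 100-kb windows counted from its left end, the number ran from 2 in the eighth window to 73 in the eleventh, which holds PlexA, ATPsynbeta, and CaMKII. The fifth window followed with 58. The windows with most summits were not those with the highest median scores. The median was 10.7 in the eleventh window, which also holds the 751, and 24.4 in the fifth. It was 165 in the first and 149 in the twelfth window, with 19 summits each, and 224 over the 2 summits of the eighth. The first summit stands at 42996, inside PlexB and 782 bp from its end, although annotation starts at 879 with JYalpha, a gene for a sodium pump alpha subunit.

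Gaps of more than 25 kb between neighboring summits numbered 9 and took up 33.9% of the chromosome 4 length, against 61.1% on X and 47.8% on the large arms. The stretch before the first summit, at 42996 on chromosome 4, is not counted. Single gaps reached 406624 bp on X and 1645135 bp on the large arms. On chromosome 4 the longest ran 90.0 kb, from 697639 to 787643. It holds all of bt, the gene for the titin-like muscle protein projectin, which is 52075 bp long and has no summit. It also holds ey, a Pax6 gene of eye development, whose boundary summits lie outside the gene, the nearest 50 bp away. The second, of 76.7 kb from 231342 to 308077, covers dpr7, RhoGAP102A, NfI, and Syt7. The third, of 47.1 kb from 132125 to 179235, covers CG32006, CG31997, and CG33978. Rad23, which delivers ubiquitinated proteins to the proteasome and borders the second gap, has a summit of 400 at 308077, 16 bp outside its start.

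Scores on chromosome 4 were higher at the median than on X and the large arms. The median was 33.3 on chromosome 4 (24.1 to 48.0), 18.0 on X (17.2 to 19.1), and 22.4 on the large arms (21.7 to 23.0), with single large arms from 19.4 on 3L to 25.1 on 2R. The upper part of the distribution lay further apart than the middle. Scores of at least 100 were reached by 142 summits of chromosome 4 (36.7%, 32.0 to 41.6%), against 10.8% on X and 20.7% on the large arms, and the highest share of a single large arm was 22.2%, on 2R. Scores of at least 200 were reached by 19.1%, against 3.91% on X and 8.36% on the large arms. At the low end, 17.1% of chromosome 4 summits scored under 5, against 19.9% on X and 22.6% on the large arms. The median of the strongest summit per peak was 55.3 on chromosome 4 (27.5 to 105), 24.6 on X (22.9 to 26.4), and 36.7 on the large arms (34.8 to 38.3). Here the interval of chromosome 4 included the large arms.

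At the median, scores differed most between the chromosomes at gene boundaries. The gene table gives no strand, so start and end of a gene here mean its lower and higher coordinate, a boundary is either one, and a transcription start site cannot be told apart from a transcript end. The 107 chromosome 4 summits within 500 bp of a coding gene boundary had a median score of 168 (122 to 205), against 23.6 (22.2 to 25.3) on X and 57.7 (55.3 to 59.8) on the large arms. Single large arms ranged from 49.2 to 63.8. Of these summits, 67.3% on chromosome 4 scored at least 100, against 11.9% on X and 34.5% on the large arms. The 162 summits inside coding genes and away from boundaries had a median of 18.2 (13.1 to 26.1), against 14.3 on X and 13.7 on the large arms. High scores were more frequent there too, with 23.5% at 100 or more (17.6 to 30.5%), against 9.43% on X and 12.6% on the large arms. The 118 summits outside coding genes and away from boundaries had a median of 21.1 (14.9 to 37.1), against 19.1 on X and 15.7 on the large arms. Without those past Cadps, the remaining 68 had a median of 14.7. Whether copy number or depth had a part in the difference at boundaries was not tested.

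**Figure D2:**
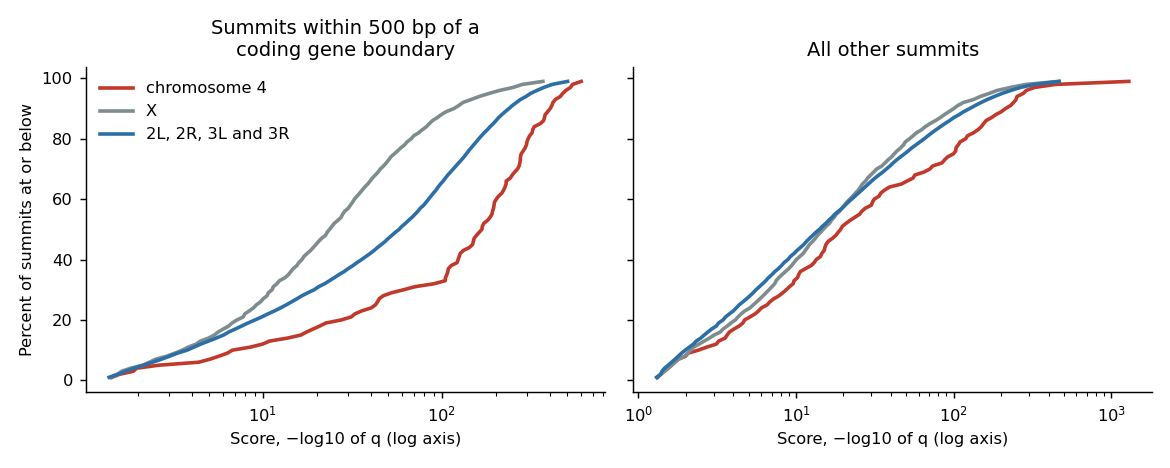
Cumulative percent of summits (vertical axis) by score, −log10 of q on a log axis (horizontal), for summits within 500 bp of a coding gene boundary on the left and all others on the right, from the 1st to the 99th percentile. At boundaries the chromosome 4 line lies to the right of the others, with a median of 168, against 23.6 on X and 57.7 on the large arms. Away from boundaries the medians are closer, 19.2, 14.9, and 14.1. The upper parts are not closer to the large arms there. The 75th percentile is 99.7 on chromosome 4 and 48.8 on the large arms, against 278 and 137 at boundaries.

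Summits inside genes were fewer on chromosome 4 than the length of its genes would give by area. Coding genes covered 80.1% of chromosome 4 and held 55.8% of its summits (50.8 to 60.7%), a ratio of 0.697. On X they covered 70.7% and held 79.4% of summits, a ratio of 1.12, and on the large arms they covered 66.5% and held 75.7%, a ratio of 1.14. Without the summits past Cadps, the share on chromosome 4 was 64.1% and the ratio 0.800. Windows of 500 bp around boundaries covered 11.4% of chromosome 4 and held 27.6% of its summits, a ratio of 2.42 (2.78 without the summits past Cadps), against 2.84 on X and 2.32 on the large arms. Summits outside coding genes and away from boundaries were 30.5% on chromosome 4 (26.1 to 35.3%), against 7.15% on X and 13% on the large arms. Without those past Cadps they were 20.2% on chromosome 4 (16.2 to 24.8%).

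Of the 80 coding genes of chromosome 4, 56 had a boundary summit, at most 500 bp from either end (70.0%, 59.2 to 78.9%), against 54.9% on X (52.8 to 57.0%) and 60.9% on the large arms (60.0 to 61.8%). Over all 13922 coding genes of the 6 chromosomes and arms, the share was 60.0%, which is within the interval of chromosome 4. With summits inside the gene counted too, 62 of 80 had one (77.5%, 67.2 to 85.3%), against 57.9% on X and 64.3% on the large arms, and 63.4% over all. Neighbors can share a summit: 16 of the 107 boundary summits lay within 500 bp of more than 1 coding gene, and 11 of the 56 genes were counted only through such summits. Among genes with no end of another gene within 1000 bp of theirs, 12 of 21 on chromosome 4 had a boundary summit (57.1%, 36.5 to 75.5%). On X it was 77 of 405 (19.0%, 15.5 to 23.1%), and on the large arms 521 of 1815 (28.7%, 26.7 to 30.8%). Such genes can still overlap another gene, as PMCA overlaps Rnf11, and they were not matched for length.

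The strongest boundary summit of these 56 genes had a median score of 229 (190 to 294), against 35.0 on X and 117 on the large arms. It was at least 100 in 45 genes (80.4%, 68.2 to 88.7%), against 16.2% of such genes on X and 56.7% on the large arms. It lay a median of 74.5 bp from the boundary. In 8 genes it was under the list median of 21.9, among them mav, CaMKII, dati, and Ekar. A summit near both ends was found in 10 genes (12.5%) and near 1 end in 46 (57.5%), against 12.9% and 42.0% on X and 19.5% and 41.4% on the large arms.

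Gene length differs between the chromosomes, so genes were compared within length classes. From 2 to 5 kb, 12 of 14 chromosome 4 genes had a boundary summit (85.7%, 60.1 to 96.0%), against 64.8% on X and 71.1% on the large arms. From 5 to 10 kb, it was 12 of 22 (54.5%, 34.7 to 73.1%), against 68.8% on X and 75.4% on the large arms. From 10 to 20 kb, it was 22 of 27 (81.5%, 63.3 to 91.8%), against 66.1% on X and 70.5% on the large arms. The order of the chromosomes thus changed between classes, and each class of chromosome 4 holds at most 27 genes. Inside genes of 5 kb and more, chromosome 4 had fewer summits per length in each class, with no interval computed, while in shorter genes it did not. In genes of 2 to 5 kb it had 6.13 per 10 kb, against 3.71 on X and 4.88 on the large arms, and in genes under 2 kb it had 5.73, against 3.36 on X and 5.77 on the large arms. In the longer genes, the number was 1.68, 2.46, and 1.50 in genes of 5 to 10 kb, 10 to 20 kb, and 20 kb or more on chromosome 4. On X it was 3.77, 2.82, and 1.60, and on the large arms 5.22, 4.19, and 2.48.

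**Figure D3:**
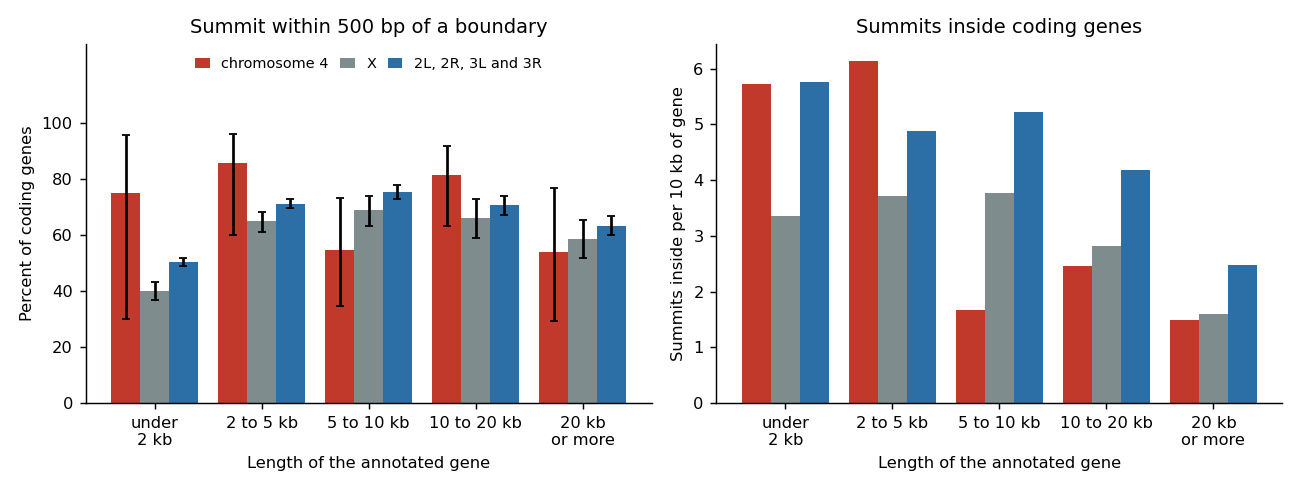
Percent of coding genes that have a boundary summit, at most 500 bp away (left, with 95% Wilson intervals) and summits inside coding genes per 10 kb of gene (right), by length of the annotated gene (horizontal axes), for chromosome 4, X, and the large arms. The left panel shows no fixed order of the chromosomes, and in the right panel chromosome 4 is lowest in genes of 5 kb and more, with 1.68 per 10 kb in genes of 5 to 10 kb.

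Genes were grouped by function, and each group's count is to be read against the 70.0% of all chromosome 4 coding genes with a boundary summit and the 60.0% over all chromosomes compared. The groups are small, and no difference between them was tested. All 12 genes with general functions had a boundary summit. The median of their strongest scores was 235, close to the 229 of all 56 such genes of the chromosome. The highest boundary score of the chromosome was 751 at 1031798, 41 bp from the end of CG11076. This summit lies inside ATPsynbeta (1031484 to 1034917), the gene for the beta subunit of mitochondrial ATP synthase, whose boundary is also within 500 bp. Tdg, a thymine DNA glycosylase gene that was sought by its synonym Thd1, shares its strongest summit, 440 at 557535, with its neighbor Pur-alpha. Rad23 had 400, Hcf, a host cell factor gene involved in chromatin regulation, had 375, and gw, needed for silencing by microRNAs, had 275. PMCA, a calcium pump gene, had 241. RpS3A, for a ribosomal protein, had 229 at 67265, 58 bp outside the gene. ND-49, for a subunit of respiratory complex I, shares a boundary summit of 197 with Ephrin and has a stronger one inside, at 253. The other 4 were MED26, a Mediator subunit gene, with 157, Slip1 with 152, PIP4K, a phosphoinositide kinase gene, with 147, and eIF4G1, a translation initiation factor gene, with 108. The summit of Slip1 is shared with CG46466 and lies 43 bp from the end of that gene.

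Of 16 transcription factor and cofactor genes, 10 had a boundary summit, between the 60.0% of all coding genes compared and the 70.0% of the chromosome. With summits inside counted too, 12 of the 16 had one, near the 77.5% of the chromosome. Their median strongest boundary score was 256, against 229 over the 56 genes. Pur-alpha, which binds single-stranded nucleic acids, had 440. The Wnt cofactor lgs had 386 and the Wnt effector pan (TCF) had 353, where 80.4% of the 56 genes had at least 100. The Polycomb recruiter pho had 370, zfh2, for a zinc finger homeodomain protein, 289, sv (Pax2) 222, and Mitf, a regulator of lysosomal genes, 197. The Pax6 genes were weaker, with 63.1 at ey and 26.6 at toy, and dati, for a zinc finger protein, had 17.6. The gene ci had a single summit, 108 inside it at 56505. It lies 536 bp from the end of ci, just past the limit of 500 bp. The Ski family gene fuss had 1 inside, with a score of 12.7. Sox102F, fd102C, onecut, and NfI had none.

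Of 9 signaling genes, 7 had a boundary summit, a share near the 70.0% of the chromosome and over the 60.0% of all coding genes compared. The semaphorin receptor genes PlexA and PlexB had 539 at 1027154 and 529 at 43805, each within 53 bp of the gene's end, and the adaptor gene Crk had 470 at 210231, 7 bp inside its start. Ephrin and its receptor gene Eph were alike, at 197 and 195. Among the genes for ligands of the TGF-beta family, Actbeta had 105 and mav had 1.54. The gene myo had none within 500 bp of a boundary, and its 235 inside lies 557 bp from its end. The glutamate receptor gene mGluR had none.

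Of 7 synaptic and neuronal genes, 4 had a boundary summit, a share near the 60.0% of all coding genes compared and under the 70.0% of the chromosome. Cadps, for a vesicle release factor, had 294 at 1230745, a summit shared with Dyrk3. Cals (calsyntenin) had 226. CaMKII had 21.9 at its boundary and 276 inside, at 1051411, while the glutamate receptor gene Ekar had 14.3. The gene unc-13, for a vesicle priming factor, had 16 summits inside and none near a boundary, and Gat, a GABA transporter gene, and Syt7 had none at all. Of 4 muscle and cytoskeletal genes, Ank (ankyrin) had 171 near its boundary, and bt and Kif3C (kinesin) had none. Zyx (zyxin) had 280 inside, a summit that is also 27 bp from the start of the neighboring gene apolpp. The other 32 coding genes of the chromosome include 22 with a boundary summit, with a median strongest score of 261. Of these, anne had the highest besides CG11076, with 605 at 132125, followed by CG31998 with 499 and Gyf, a gene for a regulator of translation, with 475.

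**Figure D4:**
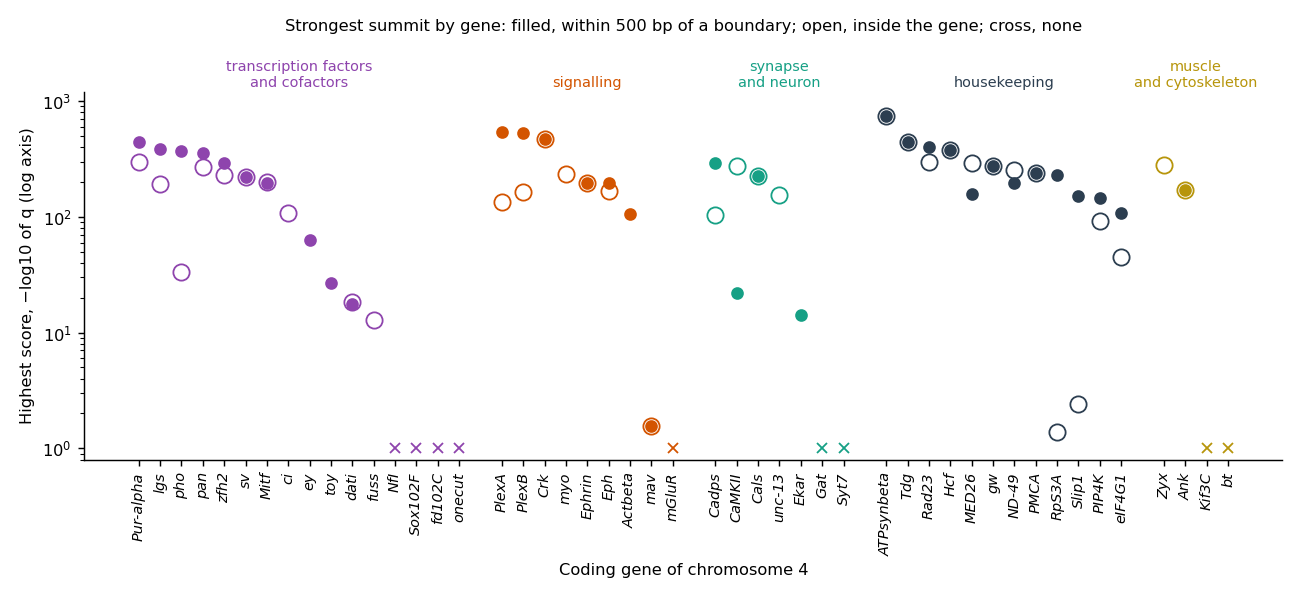
Highest score, −log10 of q on a log axis (vertical), for 48 named coding genes of chromosome 4 (horizontal), grouped by function. Filled points are summits within 500 bp of a boundary, open points are summits inside the gene, and crosses at the bottom mark genes with neither. All 12 housekeeping genes have a filled point, from 108 at eIF4G1 to 751 at ATPsynbeta. So do 10 of 16 transcription factor genes, where 56 of all 80 coding genes of the chromosome have a boundary summit. A cross marks 4 of the 16, where 18 of the 80 have no summit.

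Altogether, 18 of the 80 coding genes had no summit inside or within 500 bp. They are JYalpha, CG32006, CG31997, CG33978, dpr7, RhoGAP102A, NfI, Syt7, CG1909, onecut, Gat, bt, Sox102F, fd102C, mGluR, CG11155, Kif3C, and CG33521. Their median length was 8645 bp, against 10445 bp for the other 62. A further 6 genes (ci, myo, unc-13, fuss, Zyx, and CG32017) had summits only inside, more than 500 bp from their own ends.

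Peaks with more than 1 summit were 85 of 165 on chromosome 4 (51.5%, 43.9 to 59.0%), against 56.1% on X and 58.0% on the large arms, and 57.5% of the whole list. The interval of chromosome 4 includes all 3 values. The mean was 2.35 summits per peak, against 2.46 on X and 2.57 on the large arms, with a median of 2 in each. Peaks of exactly 2 summits were 17.0% on chromosome 4 (12.0 to 23.4%), against 24.4% on X and 23.5% on the large arms, and those of 4 were 11.5% on chromosome 4 (7.50 to 17.3%), against 7.29% on X and 7.68% on the large arms. Within a peak, neighboring summits stood a median of 202 bp apart on chromosome 4, against 196 bp on X and 208 bp on the large arms. From first to last summit, peaks with several spanned a median of 586 bp, against 378 bp on X and 460 bp on the large arms. The largest number was 10 on chromosome 4, against 19 on X and 37 on the large arms.

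**Figure D5:**
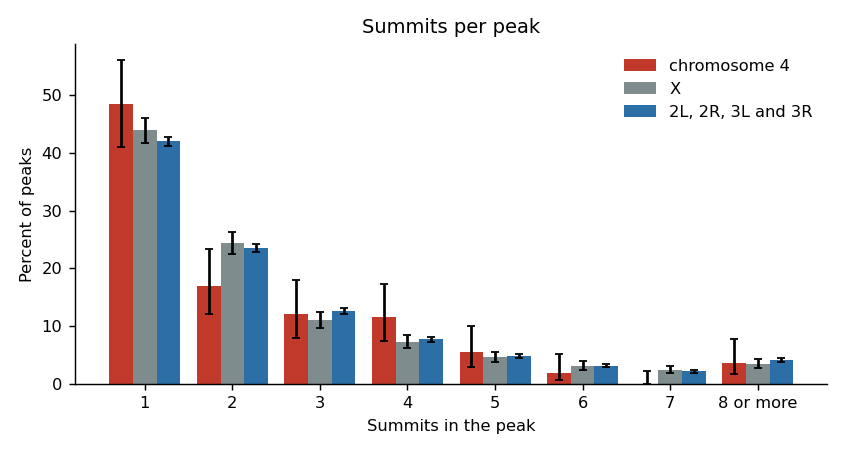
Percent of peaks (vertical axis) by the number of summits they hold (horizontal axis) on chromosome 4, X, and the large arms, with 95% Wilson intervals. Single-summit peaks are 48.5% on chromosome 4, 43.9% on X, and 42.0% on the large arms, and the chromosome 4 intervals are wide because it has 165 peaks.

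The 6 chromosome 4 peaks with 8 or more summits lie at pan, Tdg and Pur-alpha, zfh2, and Taf3, and past Cadps. A peak of 8 summits from 68839 to 70301 spans the start of pan, with scores from 87.5 to 353, and another 8 from 556649 to 558564 lie between and within Tdg and Pur-alpha, with scores from 13.1 to 440. Inside zfh2, a peak of 9 from 506781 to 508672 scores from 30.7 to 212, away from both ends of the gene. At Taf3, for a subunit of the general transcription factor TFIID, 8 summits from 457908 to 460448 score from 19.6 to 105. The other 2 lie past Cadps, with 10 summits from 1303967 to 1305433 that score at most 25.8, and 9 from 1317956 to 1319531 that score up to 329.

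Few genes held many summits inside. PlexA had 32 in 10 peaks, with a median score of 7.93, and 26 of them scored under 20. Its strongest summit, 539, lies outside the gene by 53 bp. The gene zfh2 had 23 in 8 peaks with a median of 34.5, of which 9 scored at least 100. Then came unc-13 with 16 in 6 peaks (median 16.3), CaMKII with 13 in 7 peaks (median 24.8), and pan, Cals, and ATPsynbeta with 7 each. In Cals, 6 of 7 scored at least 100, and in ATPsynbeta 1 of 7 did. A long gene need not hold any, since bt, Sox102F, and Syt7 had none at 52075, 33958, and 27797 bp.

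Of the 68 summits between coding genes and away from their boundaries, 11 scored at least 100. On X 14.3% of summits in such places did, and on the large arms 14.6%, those past the last gene included, so the count is near these shares. The stretch of 41351 bp between dati and lgs held 20 summits in 10 peaks, with a median of 15.7 and 1 strong summit, 272 at 424827, which is 12130 bp from lgs. Near fuss, a pair of summits with 250 and 247 stands at 979884 and 980026. The antisense RNA gene asRNA:CR43957, which overlaps ci at its end, holds 3 summits, of 108, 157, and 242, the last at 60208.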

How the data were processed

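The submitters' processing notes name Bowtie2 2.3.5.1, MACS2 2.1.0.20150731, deepTools 3.1.3, DESeq2 1.26.0, and dm6, without the step of each. Read filters and Tn5 offset correction: not given in the sources used here. The authors deposited 1 list of 1-bp summits, for all 10 libraries together, with −log10 of the q value (the MACS2 score). Columns without a mapped sample numbered 0. Depth per library is unknown.

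Summits were matched to RefSeq genes of the same assembly (Release 6), which carry no strand, exons, or sequence, so no start-site analysis, promoter motif, or sequence is given. Chromosome length was taken to the last annotated gene end. Shares have Wilson intervals, densities exact Poisson intervals, and medians binomial order-statistic intervals. The overlap functions were tested on simulated data. Computations ran in Python 3.11.15 with scipy 1.17.1, pandas 2.3.3, numpy 2.4.6, and, for plots, matplotlib 3.10.9.

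Named genes were members of 5 functional lists and 1 list of blood cell markers, genes at the 10 highest summits, at the peaks with most summits, with most summits inside, and in the 3 longest gaps. Outside this rule, Gyf, the noncoding genes and their neighbors, the stretch between dati and lgs, and unlisted genes without a summit or with summits only inside were named after their values were seen. The chromosome and the lists were chosen with earlier results of these data known. Alternatives were X or the large arms alone, summits at or above the median score, other lengths, 1 summit per peak (the strongest), boundary distances of 250 and 1000 bp, and all annotated genes.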

Additional observations from a re-analysis of the deposited data

How the results depend on the processing

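No paired analysis was possible because 1 summit list stands for all libraries, with no replicate number, and for the same reason no library could be left out. The alternatives that left out summits past the last gene, or measured length to the last summit, were chosen after seeing the data. Gene starts alone could not be used without strand. Of 36 alternatives set earlier, 29 kept the direction and stayed within the counting interval of the value against X and the large arms together, as did 6 of 9 added ones. The summit density ratio of 1.03 was 1.47 against X, 0.968 against the large arms, 1.17 for summits at or above the median score, and 1.71 per coding gene. It was 0.898 without summits past the last gene and 0.995 with length to the last summit, so its direction is not settled. The peak density ratio of 1.12 was 1.54 against X and 1.87 per coding gene. The median score difference of 11.9 was 61.9 for summits at or above the median score. The difference in the share of summits inside coding genes, -20.4 percentage points, was -12.1 without summits past the last gene. With at most 80 genes and 165 peaks on chromosome 4, shares are known only to within several percentage points.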

Other observations

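Of the 34 genes of chromosome 4 that are not protein-coding, 10 held a summit. They were 7 of 10 antisense RNA genes, with 18 summits, and 3 of 14 long noncoding RNA genes, with 6 summits. The 7 pseudogenes, 2 microRNA genes, and 1 small nucleolar RNA gene held 0. The same shares on X and the large arms were not computed, so these counts cannot be called high or low. Some of their summits also lie in coding genes, and 12 of the chromosome's 387 summits lay in such a gene and in no coding gene. The strongest was 440 in lncRNA:CR43958, the summit that also lies in Tdg. asRNA:CR44030, which reaches from the space after 4E-T into fuss, held 4 summits with scores up to 321, and asRNA:CR44031 held 3 with scores up to 179 at Mpv17.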
